A study of Mus musculus with 8 samples.

Results

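The genes described here carry glucose through glycolysis, admit pyruvate to the mitochondrion and answer to low oxygen. A list of 39 genes was given by name, and 37 of them had a probe set in the annotation of the array, among 20566 rows (genes, or probe sets shared by several genes) tested in all. Gpi1 and Eno1 were not analysed here. Of the 37 genes, 36 were read by a probe set that names 1 gene, and Gapdh by a probe set shared with other loci, Gm12070 among them. Cells were macrophages of C57BL/6J mice, elicited into the peritoneum with thioglycollate, an irritant broth, and harvested 5 days after its injection. They were then cultured in DMEM with serum, either unloaded (4 arrays) or with acetylated low-density lipoprotein (acLDL, 4 arrays), a modified lipoprotein that fills macrophages with cholesterol through scavenger receptors. The exposure is given as 20 µg/mL for 3 days in the sample protocols and as 50 µg/mL for 2 days in the series description, so the dose and time are not settled. The labels call the arrays of a condition independent biological replicates and do not say which mice or how many went into a culture.

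Glycolysis splits glucose into pyruvate in the cytosol. Pyruvate is then either reduced to lactate, which leaves the cell through monocarboxylate transporters, or admitted to the mitochondrion and oxidised by the pyruvate dehydrogenase complex, which kinases (Pdk) switch off and phosphatases (Pdp) switch on. Many of these genes are targets of hypoxia-inducible factor 1, whose alpha subunit is marked for destruction by oxygen-dependent prolyl hydroxylases (Egln), and macrophages are known to raise glycolysis through this factor when activated by bacterial products.

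Values are log2 expression values per probe set, on which 1 unit is a doubling. They can be compared between arrays for 1 gene and not between genes. The background level and the summed levels used below set different genes side by side nonetheless and are rough guides only. The unloaded arrays did not form a uniform group. A principal component holding 17.8% of the variance set unloaded arrays 1 and 4 apart from unloaded arrays 2 and 3. In 21 of the 37 genes (56.8%) both of arrays 1 and 4 read higher than both of arrays 2 and 3, against 28.8% of all rows, and in 2 genes (5.41%) both read lower, against 27.2% of all rows. The counts below are therefore also given without either pair. Of 7 macrophage markers 7 lay above 6.12, the 95th percentile of the mean levels of 1027 olfactory receptor genes, which is used here as a background level. Their summed unlogged level ran from 19507 to 20848 in unloaded and from 21181 to 21914 in acLDL arrays, and Adgre1, Itgam, Fcgr1 and Mertk were called higher. Csf1r, Lyz2 and Cd68 differed by -0.00, 0.06 and -0.09 and did not pass, although in Cd68 every acLDL array lay below every unloaded array. Among markers of other cells, 5 of 8 fibroblast and mesothelial genes lay above background, with summed levels of 4022 to 4961 in unloaded and 3613 to 4031 in acLDL arrays. Col1a2 and Dcn were called lower. Col1a1, Pdgfra and Upk3b, also above background, differed by 0.02, -0.23 and -0.00 and did not pass. Over the 8 genes 4 differences were positive and 4 negative. For neutrophils, T cells, B cells, mast cells, eosinophils and red cells, 1 of 8, 2 of 5, 0 of 4, 1 of 5, 1 of 3 and 2 of 3 measured markers lay above background, and the summed level of the eosinophil markers was 322 to 364 in unloaded and 246 to 271 in acLDL arrays. Of these, Siglecf was called lower (-0.60), while Prg2 and Epx, both below background, differed by -0.02 and 0.15 and did not pass. Cd28 of the T cell markers and Ly6g and Camp of the neutrophil markers were also called lower, the latter pair at levels below background. Summed levels in unloaded and acLDL arrays were 365 to 405 and 356 to 378 for neutrophils, 455 to 511 and 407 to 448 for T cells, 155 to 182 and 169 to 196 for B cells, 204 to 229 and 192 to 206 for mast cells, and 179 to 215 and 185 to 223 for red cells. Whether other cells took part in the results below was not tested. In RNA from whole cultures, fewer cells of a type and less RNA per cell cannot be told apart.

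With acLDL the changes in these genes were small and went both ways. Called means a limma adjusted p under 0.05. Of 37 genes 5 were called higher (13.5%, against 12.9% of all rows), 7 were called lower (18.9%, against 10.9%) and 25 did not pass. Taken in either direction 12 genes were called (32.4%), against 23.8% of all rows. When only the 12050 rows above background were fitted, 38.9% of them were called, 2689 higher and 1994 lower. In that fit 35 of the listed genes remained, of which 5 were called higher and 7 lower. The median log2 difference of the 37 genes was -0.03, and that of all rows -0.00. Aldoc alone changed by at least 1.5-fold. Higher were Pdk1, Ldhb, Pdk3, Egln1 and Ldha, and lower were Aldoc, Slc16a3, Eno2, Ndrg1, Hk2, Pfkfb4 and Pdha1. The genes next below the threshold were Pfkp, P4ha1 and Pkm, with adjusted p of 0.0975, 0.118 and 0.152 in limma, and the last one above it was Pdk3, at 0.0387. The 4 acLDL arrays lay wholly apart from the 4 unloaded arrays in 15 genes (40.5%, against 25.9% of all rows). The acLDL arrays lay above in 6 genes (16.2%, against 14% of all rows) and below in 9 (24.3%, against 11.9%).

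**Figure D1:**
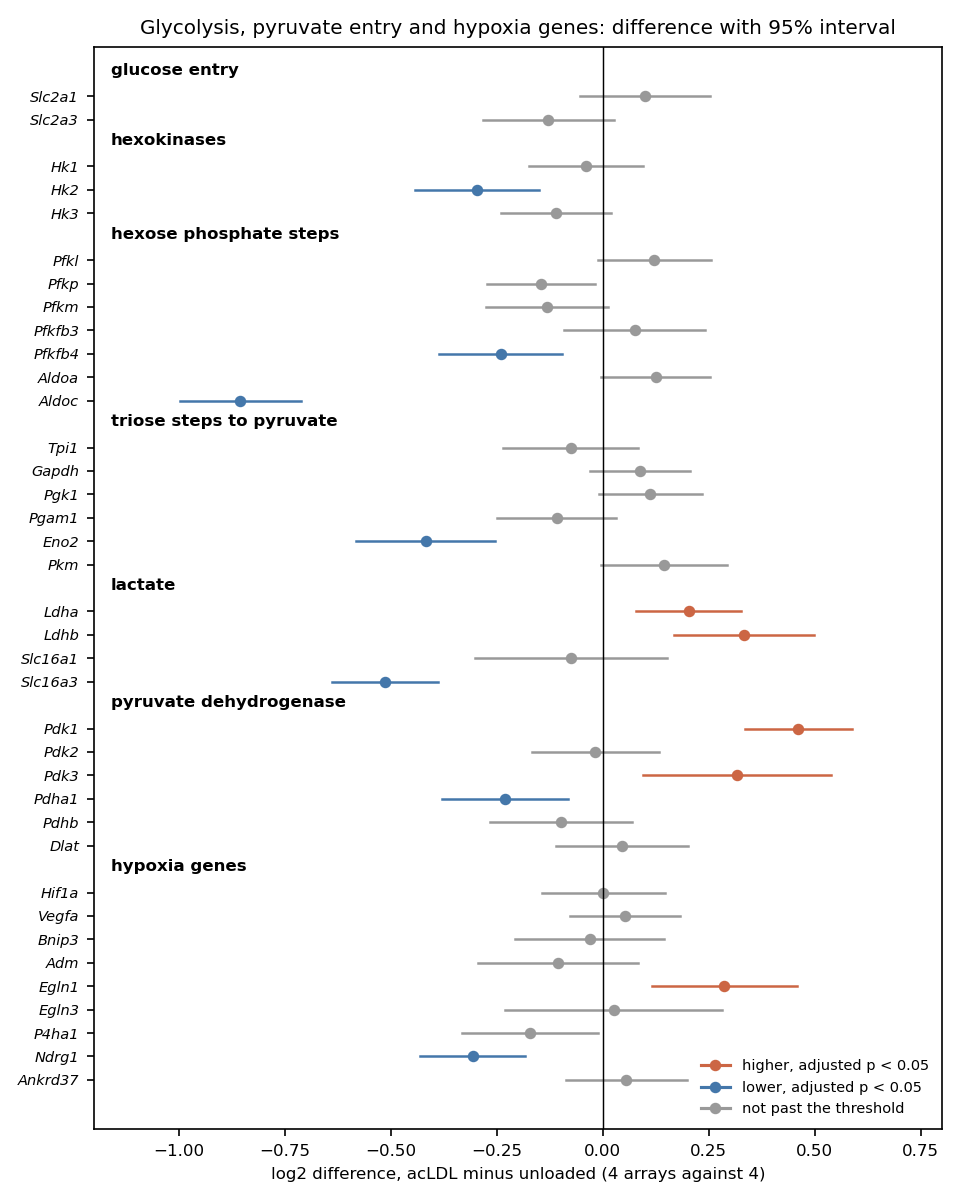
Log2 difference (acLDL minus unloaded, 4 arrays against 4) of the 37 measured genes, grouped by step, with limma's 95% interval; orange is higher and blue lower at an adjusted p under 0.05, grey did not pass. Aldoc, at -0.85, lies farthest from 0, and the 5 genes called higher belong to lactate, pyruvate dehydrogenase and hypoxia.

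Aldoc, Slc16a3, Eno2, Hk2, Ndrg1 and Pdk1 were called in each of 20 alternative treatments of the data. The other 6 called genes were lost in at least 1. Without unloaded arrays 1 and 4 the counts were 5 higher and 5 lower, and without unloaded arrays 2 and 3 they were 1 higher and 8 lower. Over all rows, dropping the first pair left 2648 calls upward and 2170 downward, and dropping the second pair left 2517 and 2369. Leaving out 1 array gave 2 to 5 genes higher and 5 to 7 lower. There were 3 higher without unloaded array 4 and without acLDL array 1, and 2 without acLDL array 2. With each array centred on its median, 5 genes were called higher and 5 lower, while the balance over all rows went from 2649 higher and 2243 lower to 2887 higher and 1495 lower.

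Promoter windows of RefSeq (build GRCm38.p6) were at hand for 37 of the 39 listed genes, Slc2a3 and Ndrg1 being the exceptions. Hypoxia-inducible factors bind DNA at the core letters ACGTG, here called the first core, or GCGTG, here called the second core. In the 250 bases before an annotated start, on either strand, 33 of the 37 genes (89.2%) held one of these, against 41.5% of all 27025 genes with a window and 58.4% of 9973 genes whose level lay above background. Counted by window, 41 of 52 windows (78.8%) held one, against 38.6% of all windows. The windows of the listed genes had a median G and C content of 61.6%, against 52.4% in all windows and 59.2% in those of genes above background, and both cores hold a CG pair. CACGTG, which contains ACGTG on both strands, stood in 7 of 37 genes (18.9%), against 6.86% of all genes and 9.52% of those above background. Among the called genes with a window, 10 of 11 held a core, Eno2 being the one without. A match is a description of letters, not a binding site. The windows of 3 genes called higher and 3 called lower are shown so that both directions can be set side by side. Each is from the most upstream annotated start of that gene. They are not the largest changes of each direction, and every window shown holds a core. Not shown are Ldhb and Pdk3, which rose more than Egln1 and Ldha, and Eno2, which fell more than Hk2. Capitals mark either core on either strand. On the opposite strand the first core reads CACGT in the printed letters, and the second core reads CACGC there.
Pdk1, chr2:71872974-71873223, plus strand: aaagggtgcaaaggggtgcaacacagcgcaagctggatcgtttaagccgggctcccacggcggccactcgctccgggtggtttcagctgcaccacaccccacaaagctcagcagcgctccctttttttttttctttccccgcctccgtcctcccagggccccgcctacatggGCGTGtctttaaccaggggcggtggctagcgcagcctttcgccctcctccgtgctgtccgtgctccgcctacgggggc
Ldha, chr7:46845554-46845803, plus strand: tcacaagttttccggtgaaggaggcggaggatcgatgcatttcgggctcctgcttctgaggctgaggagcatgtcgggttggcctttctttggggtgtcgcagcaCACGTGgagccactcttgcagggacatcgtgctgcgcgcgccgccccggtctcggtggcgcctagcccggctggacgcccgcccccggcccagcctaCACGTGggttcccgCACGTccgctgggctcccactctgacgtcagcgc
Egln1, chr8:124949255-124949504, minus strand: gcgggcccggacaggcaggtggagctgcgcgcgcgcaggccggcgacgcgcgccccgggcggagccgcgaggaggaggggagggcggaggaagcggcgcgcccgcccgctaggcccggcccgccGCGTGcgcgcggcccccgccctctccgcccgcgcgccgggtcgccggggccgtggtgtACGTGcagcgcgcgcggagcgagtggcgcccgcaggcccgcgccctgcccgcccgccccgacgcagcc
Aldoc, chr11:78322823-78323072, plus strand: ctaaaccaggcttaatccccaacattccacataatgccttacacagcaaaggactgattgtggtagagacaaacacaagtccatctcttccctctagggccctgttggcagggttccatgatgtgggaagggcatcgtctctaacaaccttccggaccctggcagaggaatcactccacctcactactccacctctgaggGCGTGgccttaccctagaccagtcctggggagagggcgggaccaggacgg
Slc16a3, chr11:120948817-120949066, plus strand: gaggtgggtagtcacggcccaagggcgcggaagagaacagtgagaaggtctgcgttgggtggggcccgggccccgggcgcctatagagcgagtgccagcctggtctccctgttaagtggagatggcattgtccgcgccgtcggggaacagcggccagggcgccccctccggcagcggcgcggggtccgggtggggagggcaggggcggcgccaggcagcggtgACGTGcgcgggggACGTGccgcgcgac
Hk2, chr6:82774455-82774704, minus strand: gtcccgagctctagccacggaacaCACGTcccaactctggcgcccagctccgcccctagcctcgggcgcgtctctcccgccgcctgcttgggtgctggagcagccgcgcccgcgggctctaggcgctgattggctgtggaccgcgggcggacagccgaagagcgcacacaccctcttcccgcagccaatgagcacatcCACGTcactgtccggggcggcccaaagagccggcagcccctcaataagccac
Ldha held CACGTG at 2 places, with first bases 145 and 48 bases before the start, and CACGT at 34 bases. Slc16a3 held ACGTG at 27 and 14 bases before the start, and Hk2 held CACGT at 226 and 52 bases. Pdk1 and Aldoc each held a GCGTG, at 78 and 50 bases. Egln1 held GCGTG at 126 bases and ACGTG at 68 bases. The cores thus stood before genes that rose and before genes that fell.

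The glucose transporter genes of the main list, Slc2a1 and Slc2a3, did not pass the threshold. Slc2a6 and Slc2a8, from the list of other glucose steps described below, were called higher. Their log2 differences were 0.22 and 0.33 (limma adjusted p = 0.0246 and 0.00411), and in both genes the groups did not overlap. Slc2a1 encodes GLUT1, the glucose transporter of most cells in culture. It read 10.32, 10.08, 10.09 and 10.17 in unloaded arrays 1 to 4 and 10.38, 10.24, 10.21 and 10.22 in acLDL arrays 1 to 4. These groups overlapped (log2 difference 0.10, 95% interval -0.05 to 0.25, limma adjusted p = 0.356). Slc2a3, encoding the high-affinity transporter GLUT3, was at or below the background level in 7 of 8 arrays, with values of 5.76 to 6.15, and differed by -0.13 (-0.28 to 0.03).

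Hexokinases trap glucose as glucose 6-phosphate. Hk2, the inducible form that docks on mitochondria, read 8.91, 8.85, 8.83 and 9.03 in unloaded cells and 8.73, 8.57, 8.53 and 8.60 in acLDL cells. Every acLDL array lay below every unloaded array, and Hk2 was 1.23-fold lower (log2 difference -0.30 ± 0.07 SE, limma adjusted p = 0.00633). Hk3, a form of myeloid cells, differed by -0.11 (-0.24 to 0.02) and did not pass, except with a trended robust prior (limma adjusted p = 0.0401). Hk1, the constitutive form, differed by -0.04 (-0.17 to 0.10). Its probe set, the brighter of the pair naming Hk1 alone, carries a single accession, which 16 of 16 probe sets shared by Hk1 and the ribosomal protein gene Rpl17 also carry, so this value may not be hexokinase 1. The other probe set, which lists the Hk1 RefSeq mRNAs, read 8.56 ± 0.07 in unloaded and 8.53 ± 0.05 in acLDL cells (SD, n = 4) and differed by -0.04 as well.

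The phosphofructokinase step commits the sugar to glycolysis, and Pfkfb enzymes make and remove fructose 2,6-bisphosphate, its activator. Pfkl, the liver-type subunit, differed by 0.12 (-0.01 to 0.26), and Pfkp and Pfkm, the platelet-type and muscle-type subunits, by -0.15 (-0.27 to -0.02) and -0.13 (-0.28 to 0.01). None of the 3 subunits was called. In Pfkp the groups did not overlap, at 10.24 to 10.37 in unloaded and 10.10 to 10.20 in acLDL arrays, and it was called lower with a trended robust prior and when the arrays were quantile normalised again or scaled by cyclic loess. Pfkfb4 read 8.39, 8.14, 8.31 and 8.27 in unloaded and 8.01, 8.09, 7.97 and 8.08 in acLDL arrays. The groups lay apart and Pfkfb4 was 1.18-fold lower (-0.24 ± 0.07 SE, limma adjusted p = 0.0187). Its call was lost without acLDL array 1 (adjusted p = 0.0527), without acLDL array 3 (0.0562), without unloaded arrays 1 and 4 (0.0913) and after median centring (0.0754). Pfkfb3, the isoform known for the strongest kinase activity, read 8.50, 8.20, 8.26 and 8.42 in unloaded and 8.47, 8.48, 8.29 and 8.43 in acLDL arrays. Unloaded arrays 2 and 3 were the low ones, and the groups overlapped (0.08, -0.09 to 0.24).

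Aldolases cut fructose 1,6-bisphosphate into trioses. Aldoc, the form known from brain, read 7.75, 7.73, 7.57 and 7.65 in unloaded arrays 1 to 4 and 6.80, 6.93, 6.75 and 6.79 in acLDL arrays 1 to 4. The highest acLDL array was far below the lowest unloaded array. Aldoc was 1.81-fold lower (-0.85 ± 0.07 SE, limma adjusted p = 1.96e-06), and its difference ran from -0.89 to -0.82 over the 20 alternatives. Aldoa, the form of muscle and most other cells, read 12.37, 12.22, 12.24 and 12.32 in unloaded and 12.44, 12.42, 12.41 and 12.38 in acLDL arrays. All acLDL arrays were the higher ones, but the difference of 0.12 (-0.00 to 0.25) did not pass, except with a trended robust prior (limma adjusted p = 0.00809).

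Of 6 genes from triose phosphate to pyruvate 1 was called lower (16.7%, against 10.9% of all rows) and 5 did not pass. Tpi1, triose phosphate isomerase, Gapdh, which makes the first NADH, Pgk1, which makes the first ATP, and Pgam1, the mutase, differed by -0.08, 0.09, 0.11 and -0.11 and did not pass. With a trended robust prior Gapdh and Pgk1 were called higher (limma adjusted p = 0.00791 and 0.0212). In Gapdh and Pgk1 all acLDL arrays lay above the unloaded ones, and in Pgam1 all lay below. Over the 25 probe sets that name Gapdh together with other loci the difference ran from -0.00 to 0.09. Eno2, the neuron-type enolase, was the exception. It read 8.89, 8.98, 9.10 and 9.05 in unloaded and 8.73, 8.59, 8.42 and 8.61 in acLDL arrays. No acLDL array reached the lowest unloaded one, and Eno2 was 1.34-fold lower (-0.42 ± 0.08 SE, limma adjusted p = 0.00132).

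Pkm encodes pyruvate kinase, the last step, and its 2 probe sets gave different calls. The brighter one, taken by the rule, read 11.65, 11.57, 11.65 and 11.80 in unloaded and 11.92, 11.75, 11.81 and 11.76 in acLDL arrays. Its groups overlapped and its difference of 0.14 (-0.00 to 0.29, limma adjusted p = 0.152) did not pass. The other one, which alone lists Pkm RefSeq mRNAs, read 11.18, 11.02, 10.94 and 11.16 in unloaded and 11.40, 11.39, 11.33 and 11.40 in acLDL arrays. Its groups did not overlap, and with it the difference was 0.30 (limma adjusted p = 0.00529), an alternative chosen after seeing the data. Pkm was also called higher with the mean of both probe sets (0.22, limma adjusted p = 0.0211) and with a trended robust prior (0.14, 0.0233). Arrays of this kind do not tell the M1 and M2 splice forms apart from a probe set value.

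At the lactate step the enzyme genes rose and the exporter fell. Ldha, whose subunit favours making lactate, read 11.43, 11.40, 11.39 and 11.47 in unloaded and 11.67, 11.64, 11.58 and 11.60 in acLDL arrays. The groups lay apart, and Ldha was 1.15-fold higher (0.20 ± 0.06 SE, limma adjusted p = 0.0202). That call was lost without acLDL array 1 (0.0609), without acLDL array 2 (0.0549) and without unloaded arrays 2 and 3 (0.0782). Ldhb, whose subunit favours using lactate, read 7.25, 6.95, 6.98 and 7.11 in unloaded and 7.43, 7.50, 7.40 and 7.29 in acLDL arrays. It was 1.26-fold higher (0.33 ± 0.08 SE, limma adjusted p = 0.00637), and the adjusted p was 0.0588 without unloaded arrays 2 and 3. A dimmer Ldhb probe set differed by 0.19 and did not pass in a fit to all deposited probe sets (limma adjusted p = 0.309).

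Slc16a3 encodes MCT4, the low-affinity lactate exporter of glycolytic cells. It read 8.95, 9.02, 9.01 and 9.03 in unloaded and 8.52, 8.47, 8.43 and 8.54 in acLDL arrays. Each group was tight and the gap between them wide, so that Slc16a3 was 1.43-fold lower (-0.51 ± 0.06 SE, limma adjusted p = 3.85e-05). Slc16a1, encoding the broader transporter MCT1, varied more among arrays, from 7.01 to 7.53 in unloaded and from 7.11 to 7.40 in acLDL cells. Its difference was -0.07 (-0.30 to 0.15).

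Kinases of pyruvate dehydrogenase rose in part. Pdk1 read 7.32, 7.28, 7.32 and 7.35 in unloaded arrays and 7.73, 7.77, 7.76 and 7.85 in acLDL arrays. The groups lay well apart, and Pdk1 was 1.38-fold higher (0.46 ± 0.06 SE, limma adjusted p = 8.46e-05), the largest rise among the 37 genes. Pdk3 read 7.74, 7.35, 7.17 and 7.43 in unloaded and 7.84, 7.81, 7.62 and 7.69 in acLDL arrays. Unloaded array 1 lay within the range of the acLDL arrays, and Pdk3 was 1.25-fold higher (0.32 ± 0.10 SE, limma adjusted p = 0.0387). Its call was lost without any 1 of unloaded arrays 2, 3 and 4 (adjusted p = 0.0905, 0.0990 and 0.0719) or of acLDL arrays 1, 2 and 4 (0.110, 0.0935 and 0.0609). Without unloaded arrays 2 and 3 its difference was 0.15 (adjusted p = 0.289), and in a fit to all deposited probe sets the adjusted p was 0.0818. Pdk2 differed by -0.02 (-0.17 to 0.13) and did not pass.

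Of the 3 listed subunits of the complex, Pdha1 was called, and Dld, a further subunit from another list, is described with the other pyruvate genes. Pdha1, the E1 alpha subunit that the kinases phosphorylate, read 9.42, 9.26, 9.26 and 9.47 in unloaded and 9.03, 9.19, 9.12 and 9.14 in acLDL arrays. The acLDL arrays were the lower ones throughout, and Pdha1 was 1.17-fold lower (-0.23 ± 0.07 SE, limma adjusted p = 0.0269). The call was lost after median centring (0.102), without unloaded array 1 (0.0596) or 4 (0.0827), and without acLDL array 1 (0.0852), 3 (0.0563) or 4 (0.0507). Without unloaded arrays 1 and 4, the higher pair, the difference was -0.14 (adjusted p = 0.176). Pdhb, the E1 beta subunit, differed by -0.10 (-0.27 to 0.07) and Dlat, the E2 core, by 0.04 (-0.11 to 0.20), and neither passed.

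**Figure D2:**
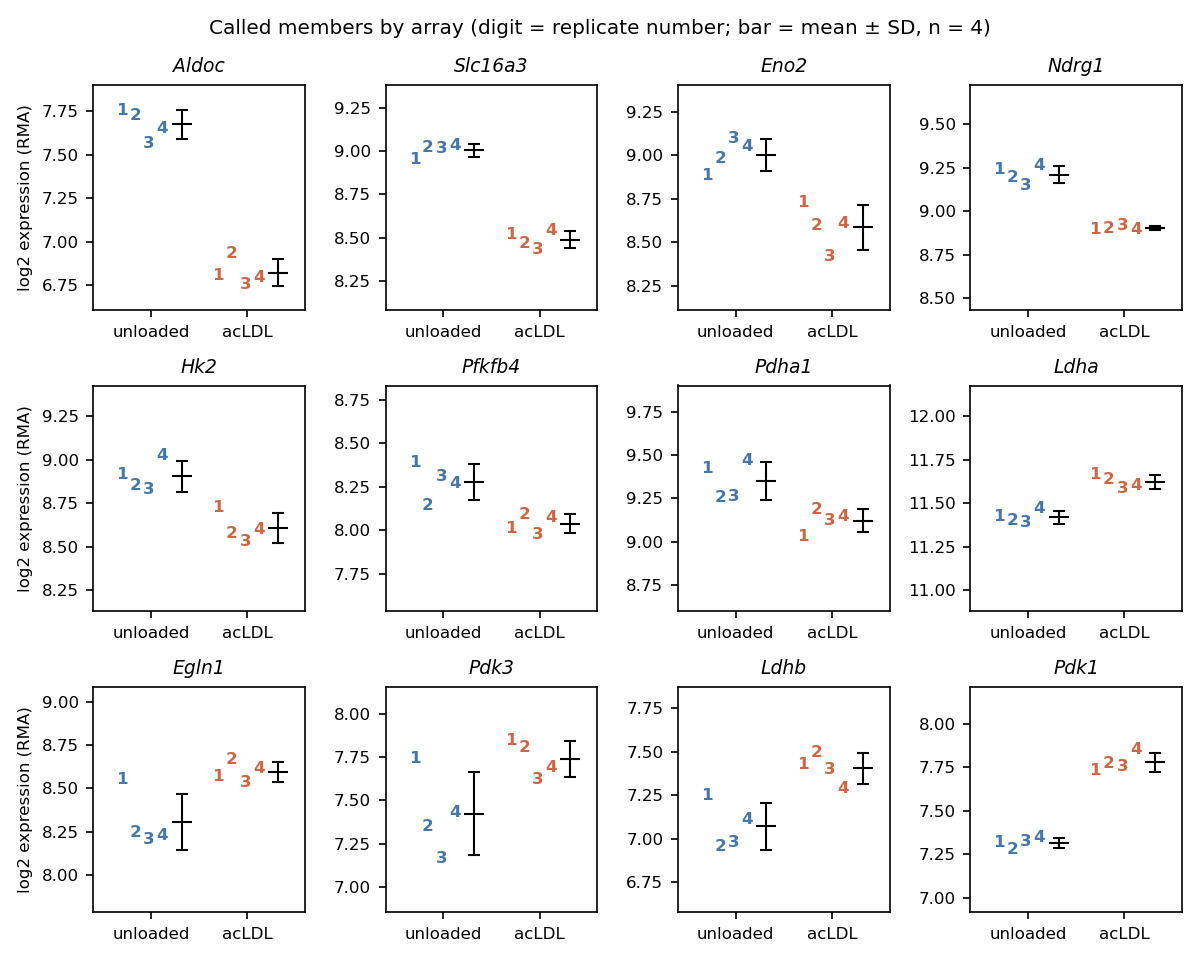
Log2 expression in each array of the 12 called genes, ordered from the largest fall to the largest rise; digits are replicate numbers, blue unloaded and orange acLDL, and bars give the mean ± SD of 4 arrays, on axes of equal span. Aldoc, Slc16a3 and Pdk1 show gaps wider than their spread, while unloaded array 1 reaches the acLDL range in Egln1 and Pdk3.

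Of 9 measured hypoxia genes 1 was called higher, 1 lower and 7 did not pass. Thus 22.2% were called, against 23.8% of all rows and 38.9% of the rows above background fitted alone. Hif1a, the alpha subunit, read 9.64, 9.44, 9.49 and 9.61 in unloaded and 9.51, 9.62, 9.48 and 9.57 in acLDL arrays. The groups lay on top of each other (0.00, 95% interval -0.14 to 0.15, limma adjusted p = 0.988). Vegfa, the angiogenic growth factor and a classic target, read 7.76, 7.74, 7.72 and 7.74 in unloaded and 7.90, 7.75, 7.78 and 7.74 in acLDL arrays. These differed by 0.05 (-0.08 to 0.18) and did not pass. The messenger RNA of Hif1a does not report on its protein, which is controlled by degradation.

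Egln1, the main oxygen-sensing prolyl hydroxylase, read 8.55, 8.25, 8.21 and 8.23 in unloaded and 8.57, 8.67, 8.53 and 8.61 in acLDL arrays. Unloaded array 1 stood within the acLDL range, well above the other unloaded arrays. Egln1 was 1.22-fold higher (0.29 ± 0.08 SE, limma adjusted p = 0.0175), and the adjusted p was 0.0527 without unloaded array 4, 0.0536 without acLDL array 2 and 0.124 without unloaded arrays 2 and 3. Ndrg1, a stress and hypoxia response gene, read 9.24, 9.19, 9.15 and 9.26 in unloaded and 8.90, 8.90, 8.92 and 8.90 in acLDL arrays. All acLDL arrays were lower, and Ndrg1 was 1.24-fold lower (-0.31 ± 0.06 SE, limma adjusted p = 0.00156). P4ha1, a collagen prolyl hydroxylase subunit, differed by -0.17 (-0.33 to -0.01) and did not pass, though leaving out unloaded arrays 2 and 3, cyclic loess scaling or a second quantile normalisation each made it a called fall.

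The remaining genes of this group did not pass. Egln3, an inducible prolyl hydroxylase, and Bnip3, a mitophagy receptor, differed by 0.03 (-0.23 to 0.28) and -0.03 (-0.21 to 0.14). Ankrd37 differed by 0.06 (-0.09 to 0.20), and Adm, encoding adrenomedullin, by -0.10 (-0.29 to 0.08) at levels of 5.59 to 6.09, all below the background level.

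Genes of the same step were compared within each array, by the change of 1 gene less the change of the other. There were 16 such pairs. The change of Aldoa less that of Aldoc was 0.98 (95% interval 0.84 to 1.12), that of Pdk1 less Pdk2 was 0.48 (0.31 to 0.65) and that of Slc16a1 less Slc16a3 was 0.44 (0.21 to 0.67). For Pfkfb3 less Pfkfb4 it was 0.32 (0.18 to 0.46), for Pfkl less Pfkp 0.27 (0.14 to 0.39) and for Pfkl less Pfkm 0.25 (0.10 to 0.41). For Pdk2 less Pdk3 it was -0.33 (-0.53 to -0.14). In these 7 pairs the groups did not overlap, and each reached 0.0286, the smallest p that a two-sided exact permutation test of 4 arrays against 4 can give. After Benjamini-Hochberg adjustment over 16 pairs that p was 0.0654, so 0 pairs passed by this test and 7 had an unadjusted p under 0.05. In contrast, limma on the same differences called 8 pairs, the extra one being Hk1 and Hk2 (0.26, 0.08 to 0.44). Pairs with Hk1 use the probe set that, as said above, may not be hexokinase 1. The other pairs did not pass by the exact test. Intervals for some of these were wide, such as -0.08 to 0.37 for Pdk1 against Pdk3, and others were narrow, such as -0.15 to 0.13 for Pfkp against Pfkm.

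**Figure D3:**
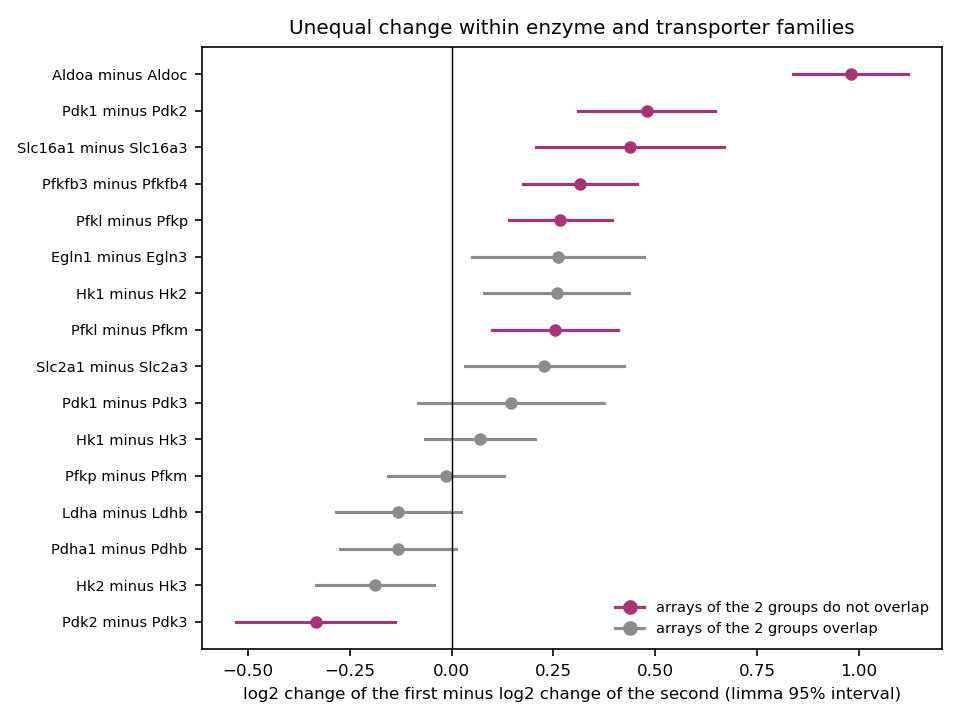
Change of the first gene minus change of the second (log2, acLDL against unloaded) for 16 pairs of the same family, with limma's 95% interval; purple marks pairs whose 2 groups of 4 arrays do not overlap. Aldoa against Aldoc stands farthest out at 0.98, and 7 pairs are purple.

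Other genes of these pathways were taken from 6 lists. Of 97 listed genes 89 were measured, of which 21 were called higher (23.6%, against 12.9% of all rows), 11 lower (12.4%, against 10.9%) and 57 did not pass. The median log2 difference was 0.06, against -0.00 over all rows. When only the 12050 rows above background were fitted, 2689 rows were called higher and 1994 lower. In that fit 81 genes of these lists remained, of which 22 were called higher and 12 lower. Without unloaded arrays 1 and 4 the counts were 29 higher and 12 lower, and without unloaded arrays 2 and 3 they were 16 higher and 16 lower. The matching counts over all rows were 2648 and 2170 for the first pair dropped and 2517 and 2369 for the second. Of the 89 genes 81 lay above background, so the shares of all rows given below are a low mark for these lists. Of rows above background fitted alone, 38.9% were called in either direction. In the fit to all rows this share was 53.3% for the tricarboxylic acid cycle list and 34.5% for the hypoxia list. It was 33.3% for other glucose steps, 30% for pyruvate entry and for glycogen, and 28.6% for pentose phosphate.

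At the entry of pyruvate, 3 of 10 measured genes were called lower (30%, against 10.9% of all rows) and 7 did not pass. Without unloaded arrays 1 and 4, 2 others were called higher. There was 1 called higher without unloaded arrays 2 and 3, with repeated quantile normalisation and with cyclic loess. The 3 called lower were the phosphatases that switch pyruvate dehydrogenase on, Pdp1 and Pdp2, and Dld, the E3 subunit that the complex shares with other dehydrogenases. Pdp2 read 7.15, 7.18, 6.83 and 7.24 in unloaded and 6.61, 6.33, 6.22 and 6.30 in acLDL arrays. All acLDL arrays were lower and Pdp2 was 1.66-fold lower (-0.73 ± 0.10 SE, limma adjusted p = 0.000138). Pdp1 was 1.30-fold lower (-0.38 ± 0.07 SE, limma adjusted p = 0.00130), at 8.96 to 9.25 in unloaded and 8.71 to 8.78 in acLDL arrays. Dld was 1.30-fold lower as well (-0.38 ± 0.08 SE, limma adjusted p = 0.00229). Mpc1, of the mitochondrial pyruvate carrier, Pdhx and Pdk4 differed by 0.12, 0.08 and 0.00 and did not pass, Pdk4 at a level below background.

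In the tricarboxylic acid cycle list, which includes cytosolic relatives of its enzymes, 6 of 15 genes were called higher (40%, against 12.9% of all rows). Called lower were 2 (13.3%, against 10.9%), or 1 after median centring, and 7 did not pass. The median difference was 0.10. Mdh2, the mitochondrial malate dehydrogenase, read 10.13, 10.13, 10.08 and 10.19 in unloaded and 10.78, 10.65, 10.73 and 10.63 in acLDL arrays. It was 1.48-fold higher (0.56 ± 0.06 SE, limma adjusted p = 2.76e-05). Idh2, a mitochondrial isocitrate dehydrogenase, and Cs, citrate synthase, were 1.34-fold and 1.33-fold higher. The 2 genes called lower, Idh1 and Aco1, encode cytosolic enzymes, and Idh1 was 1.38-fold lower (-0.46 ± 0.07 SE, limma adjusted p = 0.000222).

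Among 18 other genes of glucose steps 6 were called higher (33.3%, against 12.9% of all rows) and 12 did not pass, with a median of 0.13. Slc2a8, encoding GLUT8, was 1.25-fold higher, Adpgk, the ADP-dependent glucokinase, 1.24-fold, G6pc3, a glucose 6-phosphatase, 1.23-fold and Bsg, encoding basigin, the partner that carries monocarboxylate transporters to the membrane, 1.19-fold. Without unloaded arrays 2 and 3, 2 genes of this list were called higher and 1 lower, and without unloaded array 1 there was also 1 called lower. In the pentose phosphate list 2 of 7 genes were called higher (28.6%, against 12.9% of all rows) and 5 did not pass. The 2 were H6pd, the enzyme of the endoplasmic reticulum (1.33-fold), and Pgls, the lactonase (1.24-fold). Without unloaded arrays 2 and 3, 1 gene of this list was called lower. Of 10 glycogen genes 2 were called higher (20%, against 12.9% of all rows), 1 lower (10%, against 10.9%) and 7 did not pass. Gys1, a glycogen synthase, was 1.25-fold and Gbe1, the branching enzyme, 1.17-fold higher, and Pygb, a glycogen phosphorylase, was 1.25-fold lower. The count of glycogen genes called higher was 4 without unloaded array 1 and 1 without any 1 of unloaded arrays 2, 3 and 4 or of acLDL arrays 1, 2 and 4, and the count called lower was 2 without unloaded array 3.

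In the list of other hypoxia regulators and targets 5 of 29 genes were called higher (17.2%, against 12.9% of all rows). Called lower were 5 (17.2%, against 10.9%), and 19 did not pass. The median was -0.07. Epas1, encoding the alpha subunit of hypoxia-inducible factor 2, read 9.61, 9.41, 9.43 and 9.59 in unloaded and 10.32, 10.36, 10.27 and 10.34 in acLDL arrays. Its groups lay far apart, and it was 1.75-fold higher (0.81 ± 0.07 SE, limma adjusted p = 2.73e-06). Plod1, a lysyl hydroxylase, and Fam162a, a hypoxia-inducible mitochondrial protein, were 1.47-fold and 1.45-fold higher. Narf was 1.64-fold lower, at 7.89 to 8.11 in unloaded and 7.14 to 7.38 in acLDL arrays. The others called lower were Kdm3a (-0.43), Bhlhe40 (-0.42), Hif1an (-0.29) and Cited2 (-0.23), and the others called higher were Mif (0.38) and Tfrc (0.30). Arnt, the beta subunit that both factors share, and Vhl, which recognises the hydroxylated alpha subunits, differed by -0.00 and -0.07 and did not pass.

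**Figure D4:**
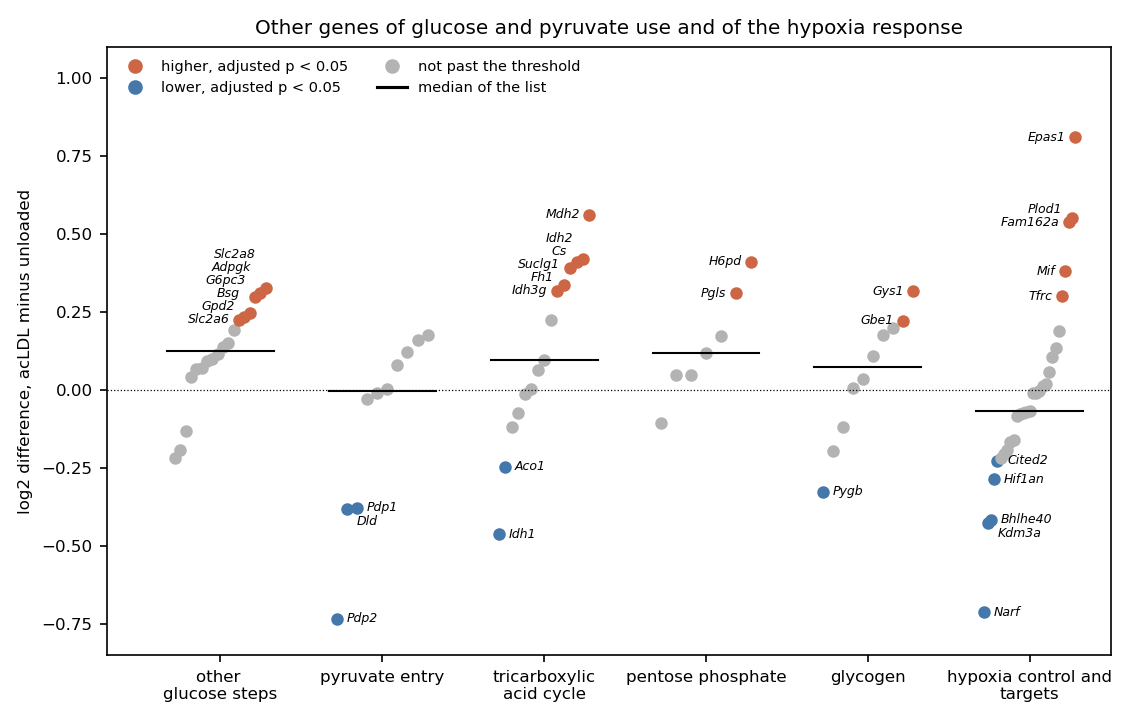
Log2 difference (acLDL minus unloaded) of 89 other genes in 6 lists, 1 point per gene ordered by value; orange is higher and blue lower at a limma adjusted p under 0.05, grey did not pass, and the line is the median of the list. Epas1 at 0.81 is the highest point, Pdp2 at -0.73 the lowest, and the pyruvate entry list has 3 blue points and no orange one.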

How the data were processed

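Total RNA was measured on 8 Affymetrix mouse gene arrays. The deposited log2 values, 35557 probe sets per array, were made with RMA per the submitters' processing notes; the version of RMA was not among the sources read. They ran from 2.63 to 14.27. Arrays carry no read depth, so their number limits the precision (median SE 0.0736). The groups come from the labels, which give no scan date or slide.

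Probe sets were named from the platform annotation: 21789 name 1 gene, 1621 several and 12147 none. Of several probe sets naming 1 gene alone, the one with the highest mean was used. A gene found only on shared probe sets was read from the brightest of these. The 20566 rows were fitted together with limma 3.58.1 (R 4.3.3), and p-values were adjusted over all of them by Benjamini-Hochberg, with a threshold of 0.05. On simulated data with 50 rows changed at each size, the fit recovered 26% of those changed 1.2-fold, 98% at 1.5-fold and 100% at 2-fold and 3-fold, with 15 false calls. Far fewer rows were changed there than were called in the real data, and the adjustment depends on that number. These shares therefore need not hold for the real data. Pairs were tested with a two-sided exact permutation test. Promoters came from RefSeq (GRCm38.p6). Plots used matplotlib 3.10.9 (Python 3.11.15).

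The members and gene lists were chosen with earlier results of these data known. By rule, array values are given for every called member and for Hif1a, Vegfa, Slc2a1, Hk2, Pfkfb3, Pkm, Ldha, Pdk1 and Pdha1, called or not, and up to 4 called genes of each other list, by size of difference, are named; Aldoa, whose array values are shown beside Aldoc, and the remaining names in those lists were chosen after their values were seen. Alternatives were another normalisation (median centring, repeated quantile, cyclic loess), a filter on dim genes, another treatment of probe sets, a trended robust prior, array weights, a replicate block, and leaving out 1 array or a pair of unloaded arrays.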

Additional observations from a re-analysis of the deposited data

Results flagged for a closer look

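In 74 groups of 4 arrays, 1 for each member and condition, the distance of the highest or lowest array from its neighbour was set against the range of the group. Chance passes Dixon's 95% critical ratio for 4 values in about 1 in 20 groups, and 2 groups passed it. Hk1 read 12.29 in acLDL array 1, while the other acLDL arrays read 12.44 to 12.47. Egln1 read 8.55 in unloaded array 1, while the other unloaded arrays read 8.21 to 8.25.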

How the results depend on the processing

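Over 20 alternatives, 699 of 738 member values kept their direction and their side of the threshold, 26 fell below it, 13 passed it and 0 were reversed; a change of sign between values that both missed the threshold was counted as kept. Of 20566 rows 2243 were called lower, against 1495 under median centring. With all deposited probe sets, which are more features than the rows, 4038 probe sets were called lower, and 21.4% were called in either direction, against 23.8% of rows. Members called higher numbered 5, against 9 with a trended robust prior and 1 without unloaded arrays 2 and 3. Leaving out 1 array gave 2092 to 2674 genes called higher and 1699 to 2178 lower, 2 to 5 members higher and 5 to 7 lower, 18 to 24 other pathway genes higher and 11 to 14 lower, and 0 pairs. limma called 8 pairs where the exact permutation test called 0. With the replicate number as a block, 24.8% of rows and the same 12 members were called, with 22 other pathway genes higher and 12 lower, and pairs could reach no p below 0.125. Arrays sharing a number correlated at 0.11, -0.163, 0.299 and 0.136 in their deviations, and 1 of 4 correlated best with its own number, so the numbers were not taken as pairs. Small changes are limited by the number of arrays, and Slc2a3 and Adm by signal at background level.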
